A study of Homo sapiens with 24 samples.

Results

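The genes described here are 37 genes of homologous recombination, the Fanconi anaemia pathway and the DNA damage checkpoints, among 20163 protein-coding genes of the annotation. They were listed by name for their function, with no measured value in the rule, and every junction on the strand and within the span of such a gene was taken. This gave 9865 of the 1828222 entries used, of which 2994 were exon–intron boundaries and 6871 were spliced junctions. The cells were HCT116, a human colorectal carcinoma line, into which a lentivirus had brought a PHF5A cDNA, either wild type (WT) or with the Y36C substitution, under blasticidin selection. Both genotypes therefore overexpress PHF5A beside their own copy, and they were treated for 6 h with the solvent DMSO or with E7107, which made 4 groups of 6 samples, named below by genotype and treatment (WT DMSO, for example). The labels give no dose of E7107. The methods of the study name more than 1, and its results describe the RNA-seq analysis at 1 of them. The labels do not tie these samples to that dose, so the dose behind these effects is not known here. PHF5A is a subunit of SF3b, the part of the U2 snRNP that recognises the branch point of an intron, and E7107 is a pladienolide derivative that binds SF3b. The labels do not say that the 6 samples of a group came from separate cultures, so the p-values measure the spread between these samples, which may be technical.

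Homologous recombination repairs a DNA double-strand break by copying the sister chromatid. The MRE11–RAD50–NBN complex, RBBP8, EXO1 and BLM trim the broken ends, BRCA1, BARD1, PALB2 and BRCA2 prepare the single strand for the search, and RAD51B, RAD51C, RAD51D, XRCC2, XRCC3, RAD52 and RAD54L assist in pairing it with the intact copy. The Fanconi core complex attaches ubiquitin to FANCD2 and FANCI where strands are crosslinked, after which nucleases and helicases such as SLX4 and BRIP1 act. The kinases ATM and ATR signal through CHEK2 and CHEK1, and TP53BP1 with RIF1 holds back end trimming. Many of these genes have long transcripts with many introns, and a retained intron or a skipped exon usually breaks the reading frame unless the skipped bases are a multiple of 3.

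Retention was measured as the percent spliced in (PSI) of a boundary, the share of reads at a splice site that run across the exon–intron boundary in place of being spliced there. The level of a gene is its mean boundary PSI, taken over annotated boundaries with reads in all 24 samples, and 36 of the 37 genes had at least 3 such boundaries. XRCC2, with 2 of its 4 boundaries read in all samples, had no level. The files hold percentages without counts, so the depth is known only from the number of sites with reads, with group medians between 282962 (WT E7107) and 338114.5 (WT DMSO) over all genes. Of 1461 annotated boundary sites of the 37 genes, 1400 were read in all samples of WT DMSO, 1399 in Y36C DMSO and 1391 in Y36C E7107, but 1217 (83.3%) in WT E7107. Over all genes that share was 75.9% in WT E7107 and 89.1% in WT DMSO. In bulk RNA, fewer cells of a type and less RNA per cell cannot be told apart, and neither can they here. BRCA2 had reads at 46 of 46 sites in every sample of the other groups and at 11 in WT E7107, PALB2 at 4 of 25, FANCM at 5 of 41 and SLX4 at 5 of 28, so the levels of these genes rest on the few sites still read under E7107 in WT cells. Of the colon epithelial markers EPCAM, CDH1, KRT8, KRT18, KRT20 and CDX2 had sites read in all DMSO samples, while CDX1, CEACAM5 and VIL1 had no listed site. Among the markers of other cell types reported here, PTPRC, CD3E, PECAM1, COL1A2 and DCN had no listed site, VWF had 1 site that was not read in all DMSO samples, and COL1A1 had 89 sites, all of them read. The genotype labels could not be checked, since the files hold neither base calls nor expression levels.

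In WT cells, E7107 raised retention in 30 of the 36 genes and lowered it in 2 (limma, Benjamini–Hochberg adjusted p of 0.05 or less). Over all 9683 genes tested, 72.6% rose and 7.94% fell. The median level of the genes went from 2.87% to 13.7%, and the median change was 9.37 percentage points against 6.29 over all genes. In Y36C cells 22 of the 36 rose and 0 fell, against 47.2% and 1.02% of all genes, but the rises were small: the median change was 1.21 points against 0.876 over all genes. At least 10 points were gained by 17 genes in WT and by 1 gene, FANCG, in Y36C. No share of all genes at this cut is given here, so these counts have no background. Of 54 other genes of the same pathways, 50 were tested, and 40 of these rose and 4 fell in WT while 29 rose and 0 fell in Y36C. The change in WT said little about the change in Y36C, with Pearson's r of 0.092 and Spearman's rho of -0.035 over the 36 genes, which all come from the same libraries.

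**Figure D1:**
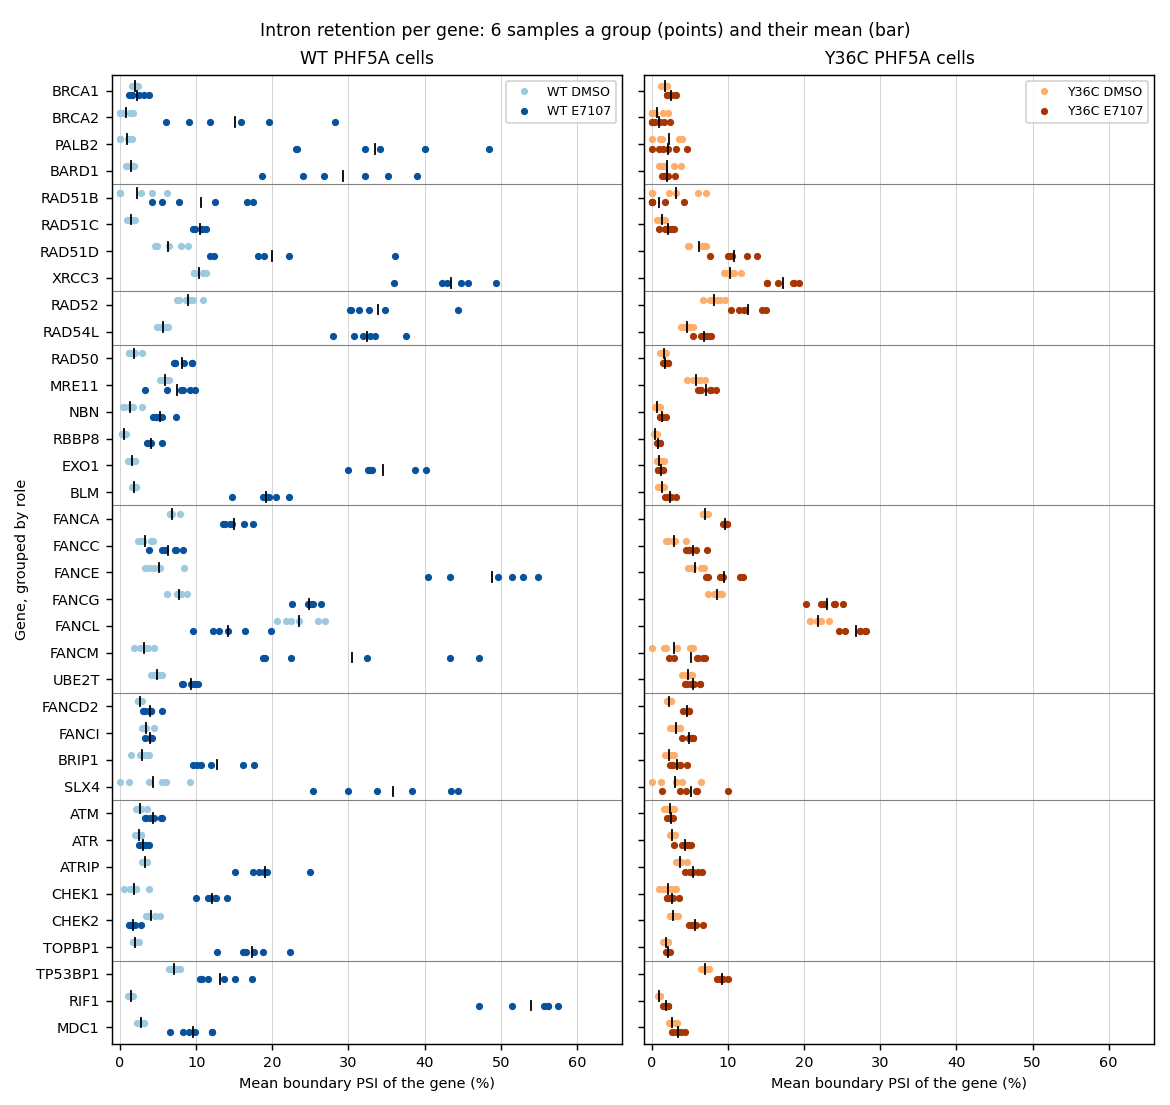
Mean boundary PSI (%) of each of the 36 genes in every sample, with WT cells in the left panel and Y36C cells in the right, DMSO in light and E7107 in dark colours, and a bar for the mean of 6 samples. RIF1, FANCE and XRCC3 lie farthest to the right under E7107 in WT cells, FANCG is shifted in both panels, and FANCL and CHEK2 move left in WT and right in Y36C.

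The largest rise among the 36 genes was that of RIF1, which shields broken ends together with TP53BP1 (chr2:152266397-152364527 of hg19, plus strand). Its mean boundary PSI had a lowest, median and highest sample of 1.01%, 1.49% and 1.72% in WT DMSO, and of 47.1%, 55.9% and 57.6% in WT E7107. In Y36C DMSO the corresponding values were 0.783%, 0.96% and 1.11%, and in Y36C E7107 they were 1.45%, 1.95% and 2.16%. Every treated sample thus lay above every untreated one in both genotypes, and the gain was 52.6 points in WT (log odds 3.89 ± 0.083 SE, limma adjusted p = 2.26e-13) and 0.896 points in Y36C (0.381 ± 0.056, adjusted p = 1.33e-04). The genotypes differed in this effect (interaction, adjusted p = 3.63e-19). All 66 RIF1 boundaries tested in WT rose, and among 32 introns read at both boundaries in all samples the mean under E7107 ran from 14.1% (intron 7) to 89.5% (intron 21). TP53BP1 moved much less, from a mean of 7.09% to 13.1% in WT and from 6.94% to 9.16% in Y36C. MDC1, a scaffold that binds phosphorylated chromatin at breaks, went from 2.8% to 9.62% in WT (adjusted p = 5.08e-07), while its 2.63% and 3.38% in Y36C did not pass (adjusted p = 0.0737), although it passed when Y36C DMSO replicate 1 or Y36C E7107 replicate 5 or 6 was left out (adjusted p between 0.0332 and 0.0495).

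Among BRCA1, BARD1, PALB2 and BRCA2, 3 of 4 rose in WT (PALB2, BARD1 and BRCA2) and 1 of 4, BRCA1, in Y36C. PALB2, the bridge between BRCA1 and BRCA2, had samples of 0%, 1.07% and 1.56% (lowest, median and highest) in WT DMSO and of 23.2%, 33.2% and 48.4% in WT E7107. BARD1, the partner of BRCA1 in its ubiquitin ligase, went from 0.82%, 1.64% and 1.78% to 18.6%, 29.5% and 39.0%. In neither gene did the WT groups overlap (adjusted p = 1.86e-08 and 2.22e-09), whereas the Y36C groups of both overlapped and their changes of -0.229 and -0.0407 points did not pass. BRCA2, a mediator of strand exchange at the break, had samples between 0% and 1.7% in WT DMSO and between 6.06% and 28.2% in WT E7107 (adjusted p = 6.92e-06), on 11 boundaries. None of these boundaries had a PSI above 0 in enough WT samples to be tested singly, so the BRCA2 call rests on their mean alone. BRCA1 was the exception: its samples lay between 1.54% and 2.33% in WT DMSO and between 1.14% and 3.81% in WT E7107, the groups overlapped, and the change of 0.319 points did not pass (adjusted p = 0.643). In Y36C cells BRCA1 went from a median sample of 1.73% to 2.37% (adjusted p = 0.0158).

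Of RAD51B, RAD51C, RAD51D and XRCC3, which belong to 1 family, all 4 rose in WT and 2 rose in Y36C. XRCC3 (chr14:104163946-104181841, minus strand), a member of the complex with RAD51C, had samples of 9.73%, 10.4% and 11.3% in WT DMSO and 35.97%, 43.8% and 49.4% in WT E7107, and of 9.41%, 10.2% and 11.7% and then 15.1%, 17.6% and 19.3% in Y36C. The gain was 33.1 points in WT and 6.91 in Y36C, both past the test (adjusted p = 2.15e-10 and 1.86e-05), with no overlap of treated and untreated samples. RAD51C rose by 8.98 points in WT, and 1 intron carried most of this: intron 1 averaged 59.5% under E7107, while the median of its 5 introns read throughout was 0.517%. Its change of 0.724 points in Y36C did not pass (adjusted p = 0.0959), but did without Y36C E7107 replicate 6 (0.0119) and with the replicate number as a block (0.0157). RAD51D rose by 13.7 points in WT and 4.62 in Y36C. All 20 of its annotated boundaries also lie in a read-through gene on the same strand, so reads of that gene are counted with it. RAD51B, with 4 boundaries, rose by 8.5 points in WT (adjusted p = 0.00332), and its -2.13 points in Y36C did not pass (adjusted p = 0.233).

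RAD52, which anneals single strands, and RAD54L, a motor protein that helps strand exchange, rose in both genotypes. RAD54L had samples between 4.91% and 6.33% in WT DMSO and between 27.9% and 37.6% in WT E7107, and between 3.76% and 5.33% and then between 5.43% and 7.76% in Y36C, with no overlap in either. RAD52 went from a mean of 8.92% to 33.9% in WT and from 8.20% to 12.6% in Y36C.

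Of the 6 genes of end processing, 5 rose in WT and 4 in Y36C, with a wide spread in size. EXO1, a nuclease that resects broken ends (chr1:242011269-242058450, plus strand), had samples of 1.1%, 1.77% and 1.93% in WT DMSO and 30.0%, 33.0% and 40.2% in WT E7107 (33.0 points, log odds 3.02 ± 0.095 SE, adjusted p = 6.5e-12). In Y36C cells the same gene went from a median sample of 0.946% to 1.19%, the groups overlapped, and the change did not pass (adjusted p = 0.535). The helicase BLM went from a mean of 1.87% to 19.2% in WT and from 1.25% to 2.32% in Y36C, both past the test. RAD50, NBN and RBBP8 rose in WT by 6.36, 3.97 and 3.59 points. The 48 RAD50 boundaries also lie within a read-through gene on the same strand. MRE11, the nuclease of the complex, had samples between 5.22% and 6.47% in WT DMSO and between 3.33% and 9.79% in WT E7107, and this change did not pass (adjusted p = 0.247) unless WT E7107 replicate 5, the lowest sample, was left out (0.00295). Its rise of 1.36 points in Y36C (adjusted p = 0.0466) was lost in 7 of the 12 fits that left out 1 sample.

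In the Fanconi core and its ubiquitin enzymes, 6 of 7 genes rose and 1 fell in WT, and 5 rose in Y36C. FANCE, the subunit that binds FANCD2 (chr6:35420115-35434881, plus strand), had samples of 3.32%, 4.78% and 8.46% in WT DMSO and 40.4%, 50.6% and 54.9% in WT E7107. In Y36C it went from 4.72%, 5.32% and 6.82% to 7.14%, 9.18% and 11.98%, so that the gains were 43.7 and 3.76 points (adjusted p = 1.04e-09 and 0.00169). FANCG, a scaffold of the core (chr9:35073832-35080001, minus strand), had the largest gain of the 36 genes in Y36C. Its samples were 6.21%, 7.9% and 8.83% in WT DMSO and 22.6%, 25.0% and 26.4% in WT E7107, and 7.34%, 8.72% and 9.17% in Y36C DMSO and 20.2%, 23.3% and 25.0% in Y36C E7107. The gains of 17.1 and 14.5 points differed by 2.65 points (interaction, adjusted p = 0.029), a call that was lost without WT DMSO replicate 2 or Y36C E7107 replicate 6 (0.0572 and 0.0578). FANCA rose by 8.16 points in WT and 2.66 in Y36C, and FANCC by 3.1 and 2.48 points, with no interaction past the test for FANCC (adjusted p = 0.824). FANCM, the translocase that anchors the core, rose by 27.3 points in WT on 5 boundaries, and UBE2T, the ubiquitin-conjugating enzyme, by 4.41 points, while their 2.25 and 0.604 points in Y36C did not pass (adjusted p = 0.14 and 0.27).

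FANCL, the ubiquitin ligase of the core (chr2:58386378-58468545, minus strand), went the other way. Its retention was the highest of the 36 genes without drug, with samples of 20.6%, 23.0% and 26.9% in WT DMSO and 20.8%, 21.8% and 23.2% in Y36C DMSO. Under E7107 it fell in WT to 9.52%, 13.6% and 19.8%, and rose in Y36C to 24.5%, 27.4% and 28.1%, without overlap of treated and untreated samples in either genotype. The changes were -9.36 and 5.02 points (adjusted p = 4.18e-04 and 4.38e-04), and they differed by 14.4 points (interaction, adjusted p = 2.04e-06).

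Among the substrates and downstream factors, FANCD2 rose by 1.37 points in WT and 2.39 in Y36C, and the rise was larger in Y36C (interaction, adjusted p = 0.016). FANCI, its partner, had samples between 2.87% and 4.51% in WT DMSO and between 3.25% and 4.18% in WT E7107. This change did not pass (adjusted p = 0.0865) except without WT DMSO replicate 1 or WT E7107 replicate 3 (0.00901 and 0.0418), while the rise of 1.79 points in Y36C did, and the effects differed (interaction, adjusted p = 0.0237). The helicase BRIP1 rose by 9.75 points in WT, and its 1.03 points in Y36C (adjusted p = 0.0337) were lost in 6 of the 12 fits that left out 1 sample. The nuclease scaffold SLX4 went from samples between 0% and 9.21% to samples between 25.4% and 44.4% in WT, on 5 boundaries, and did not pass in Y36C. FANCD2, CHEK2 and the first exons of BRCA1 have near-identical copies elsewhere in the genome, so reads of these genes may have been placed on a copy or taken from one.

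In the checkpoint branch, the ATR partners ATRIP and TOPBP1 rose in WT from means of 3.28% and 1.97% to 19.0% and 17.4%, and CHEK1, the kinase ATR activates, from 1.86% to 12.1%. In Y36C cells ATRIP rose by 1.72 points (adjusted p = 0.00263), while TOPBP1 and CHEK1 changed by 0.206 and 0.458 points and did not pass. The 2 large kinases stood near the bottom of the list. ATM rose by 1.73 points in WT (adjusted p = 0.00171) and its 0.142 points in Y36C did not pass, and ATR changed by 0.571 points in WT (adjusted p = 0.0739, and 0.0387 without WT E7107 replicate 4) and rose by 1.7 in Y36C (adjusted p = 0.00121). CHEK2, the kinase downstream of ATM (chr22:29083731-29138410, minus strand), had samples of 3.36%, 3.73% and 5.28% in WT DMSO and 1.13%, 1.49% and 2.76% in WT E7107. In Y36C the order was turned, with 2.33%, 2.65% and 3.45% under DMSO and 4.84%, 5.54% and 6.64% under E7107. The fall of 2.35 points and the rise of 2.83 points both passed (adjusted p = 6.49e-05 and 1.42e-05), as did their difference of 5.19 points (adjusted p = 3.57e-09).

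The interaction of genotype and treatment passed in 32 of the 36 genes, with the signed effect of E7107 on the log odds lower in Y36C than in WT in 28 and higher in 4. The 4 were FANCL and CHEK2, which fell in WT and rose in Y36C, and FANCD2 and FANCI. Over all genes it was lower in 61.1% and higher in 13.5%. For ATR the interaction missed the threshold (adjusted p = 0.0517) and passed in 8 of the 24 fits that left out 1 sample. Under E7107 alone, 27 genes were lower and 4 higher in Y36C than in WT, against 65.6% and 15.2% of all genes. These comparisons use the same samples as those above and are no separate evidence. Without drug 0 of the 36 genes passed in limma between the genotypes, with 5 at an unadjusted p under 0.05, against 0.361% of all genes higher and 0.279% lower in Y36C.

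At single boundaries, 1465 annotated boundary entries of the 37 genes were listed, 1216 were read in all 12 WT samples, and 761 of these had a PSI above 0 in at least 6 samples and were tested. In WT 430 (56.5%) rose and 54 (7.1%) fell, against 62.1% and 4.44% over all genes. Of the 761, 24 were at 0 in every WT DMSO sample and so passed the filter through WT E7107 alone, and all 24 are among the 430 rises. Another 9 were at 0 in every WT E7107 sample, passed the filter through WT DMSO alone and could only fall. In Y36C 678 of 1388 entries read were tested, and 123 (18.1%) rose and 8 (1.18%) fell, against 18.1% and 0.634%. The shares were thus close to the background in Y36C and somewhat lower for rises in WT. Of the 678, 1 was at 0 in every Y36C DMSO sample and so passed the filter through Y36C E7107 alone, and it is among the 123 rises. The rises counted in WT were 66 of 66 tested entries in RIF1, 28 of 29 in EXO1, 23 of 24 in FANCG, 22 of 23 in CHEK1 and 38 of 49 in TOPBP1, but 6 of 62 in FANCI and 1 of 8 in BRCA1. The falls gathered in FANCD2 (13), FANCI (10), CHEK2 (9), FANCL (7) and ATR (6). In Y36C FANCG had 19 rises among 24 tested entries. In the interaction the signed effect was lower in Y36C in 339 of 977 entries and higher in 70, against 43.5% and 6.47%. Entries could enter the interaction with a PSI above 0 in 1 group alone, and those that did were not counted. Under E7107 alone 380 of 752 were lower and 76 higher in Y36C, against 56.1% and 9.36%. Of these 752, 48 were at 0 in every Y36C E7107 sample and 7 in every WT E7107 sample, and so were tested through the other group alone.

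The 3′ ends of introns show splice sites at the extremes of this range. The first set below holds 3 introns with high retention in WT cells under E7107, chosen after their values were seen, and the second holds 3 of the 39 introns with both boundaries at 0 in all 6 WT E7107 samples, which tie as the lowest. Each line gives the last 60 bases of the intron in lower case and the first 10 bases of the next exon in capitals, in hg19.
RIF1 intron 21, chr2:152311349-152311418, plus strand: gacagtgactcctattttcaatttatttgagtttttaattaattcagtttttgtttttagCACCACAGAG
FANCE intron 6, chr6:35427399-35427468, plus strand: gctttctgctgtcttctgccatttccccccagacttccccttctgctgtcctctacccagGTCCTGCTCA
SLX4 intron 2, chr16:3656690-3656759, minus strand: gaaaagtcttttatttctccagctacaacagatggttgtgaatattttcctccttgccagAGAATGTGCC
ATM intron 20, chr11:108143199-108143268, plus strand: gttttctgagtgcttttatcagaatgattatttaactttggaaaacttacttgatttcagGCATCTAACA
BRCA2 intron 5, chr13:32900319-32900388, plus strand: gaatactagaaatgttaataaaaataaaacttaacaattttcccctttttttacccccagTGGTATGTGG
CHEK2 intron 4, chr22:29115464-29115533, minus strand: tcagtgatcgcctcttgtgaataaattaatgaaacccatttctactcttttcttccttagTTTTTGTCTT
Averaged over both boundaries, RIF1 intron 21 was at 0.562% in WT DMSO and 89.5% ± 6.51 (SD, n = 6) in WT E7107, FANCE intron 6 at 2.73% and 68.9% ± 8.11, and SLX4 intron 2 at 1.39% and 66.2% ± 24.0. In Y36C E7107 the same introns were at 2.29%, 5.19% and 6.34%. The second set was low without drug too: ATM intron 20, BRCA2 intron 5 and CHEK2 intron 4 were at 2.12%, 0.49% and 1.23% in WT DMSO. They were at 0%, 1.12% and 0.243% in Y36C DMSO and at 0%, 1.86% and 1.3% in Y36C E7107. The share of C and T in the last 40 intron bases was 65%, 77.5% and 55% in the first set and 50%, 62.5% and 65% in the second, so the sets overlapped. The letters CTNAC, a loose form of the human branch point searched on the transcript strand alone, lie in the last 40 bases of ATM intron 20 and of none of the other 5 introns shown. They were found in 15.1% of 568 introns of these genes and in 22% of 85556 introns of all genes.

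The 5 boundaries that rose most in WT, with at most 1 per gene, lay in RIF1, FANCM, BARD1, SLX4 and EXO1. The 3′ boundary of RIF1 intron 21 (chr2:152308220-152311408) had WT DMSO samples of 0%, 0% and 2.22% (lowest, median and highest) and WT E7107 samples of 78.6%, 92.3% and 95.2% (log odds 6.46 ± 0.334 SE, adjusted p = 1.43e-08). Its Y36C E7107 samples reached 13.0% at most. FANCM intron 1 (chr14:45605743-45606271) rose at its 3′ boundary from 0%, 11.9% and 15.0% to 87.5%, 94.4% and 95.5%, and in Y36C from a median of 9.81% to 29.7% without passing (adjusted p = 0.16). BARD1 intron 4 (chr2:215634037-215645283) rose at its 5′ boundary from a median of 0% to 81.6%, with the lowest treated sample at 50%, and its Y36C medians were 8.02% and 6.56%. The ends of this long intron differed: the 3′ boundary averaged 29.4% in WT E7107, with samples between 0% and 60%, against 76.5% at the 5′ boundary. In Y36C the 3′ boundary was at 0% in all DMSO samples and averaged 3.91% under E7107 (adjusted p = 1.87e-06). This entry was therefore tested in Y36C cells through Y36C E7107 alone. The interaction did not pass at this end (adjusted p = 0.285). In EXO1 intron 3 (chr1:242012519-242013710) the ends also differed, with means of 76.7% at the 5′ and 23.7% at the 3′ boundary. Over the 568 introns, the changes at the 5′ and 3′ boundaries in WT were related with Pearson's r of 0.867, across introns that share libraries and are not independent. The 5′ boundary of SLX4 intron 2 had samples between 0% and 16.7% in WT DMSO and between 50% and 88.9% in WT E7107. The differences between the genotypes in these rises passed for all 5 boundaries, and among the 5 largest differences stood FANCE intron 6 (chr6:35427232-35427458), whose 5′ boundary rose by 70.2 points in WT and changed by 2.46 points in Y36C (interaction, adjusted p = 9e-06).

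The 5 boundaries that rose most in Y36C lay in ATR, FANCG, FANCL, CHEK2 and FANCA. The 5′ boundary of FANCG intron 9 (chr9:35075752-35075958) had samples of 15.0%, 17.6% and 26.1% in Y36C DMSO and 35.9%, 44.2% and 58.5% in Y36C E7107, and of 14.1%, 15.5% and 18.2% and then 26.3%, 39.5% and 45.6% in WT. Both rises passed (adjusted p = 4.74e-04 and 3.21e-05) and their difference did not (0.562). FANCA intron 5 (chr16:89874776-89877114) rose in the same way, from a mean of 16.7% to 36.8% in Y36C and from 20.9% to 35.3% in WT at its 3′ boundary. The other 3 boundaries fell in WT or differed between their ends.

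The 3′ boundary of FANCL intron 9 (chr2:58390210-58390568, 359 bases) was already retained without drug, with samples of 50%, 60.3% and 70.6% in WT DMSO. It fell to 7.14%, 15.1% and 30.0% in WT E7107 and rose from 37.1%, 54.4% and 66.7% to 61.1%, 81.2% and 88.2% in Y36C, the latter groups overlapping between 61.1% and 66.7%. The effects differed by 68.5 points (log odds 3.3 ± 0.398 SE, adjusted p = 4.41e-07). At the 5′ boundary of the same intron the WT fall was also seen, from a mean of 54.8% to 18.5%, but the Y36C means of 52.9% and 48.9% did not differ past the test (adjusted p = 0.654). The 3′ boundary of CHEK2 intron 9 (chr22:29092976-29095825) fell from 14.6%, 18.4% and 20.0% to 0%, 4.81% and 5.88% in WT and rose from 8.82%, 12.3% and 14.5% to 30.4%, 34.2% and 37.5% in Y36C, with no overlap of treated and untreated samples in either genotype (interaction, adjusted p = 1.53e-07). In ATR intron 35 (chr3:142204125-142211973) the Y36C samples rose at both boundaries, from means of 23.9% and 35.1% to 67.7% and 68.6%. In WT its 3′ boundary fell from 20.7% to 4.7% (adjusted p = 0.00833), while its 5′ boundary rose from 15.3% to 30.0% (adjusted p = 0.037, a call lost in 9 of the 12 fits that left out 1 sample). The 5′ boundary of FANCC intron 12 (chr9:97873920-97876910) fell from a mean of 20.9% to 6.67% in WT and rose from 21.0% to 38.8% in Y36C (interaction, adjusted p = 0.00197), though the rise (adjusted p = 0.0319) was lost in 7 of the 12 such fits. At its 3′ boundary the WT means of 27.2% and 23.5% did not differ past the test (adjusted p = 0.256). The Y36C mean there rose from 21.9% to 37.7% (adjusted p = 0.0288), and the interaction did not pass (adjusted p = 0.0923).

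**Figure D2:**
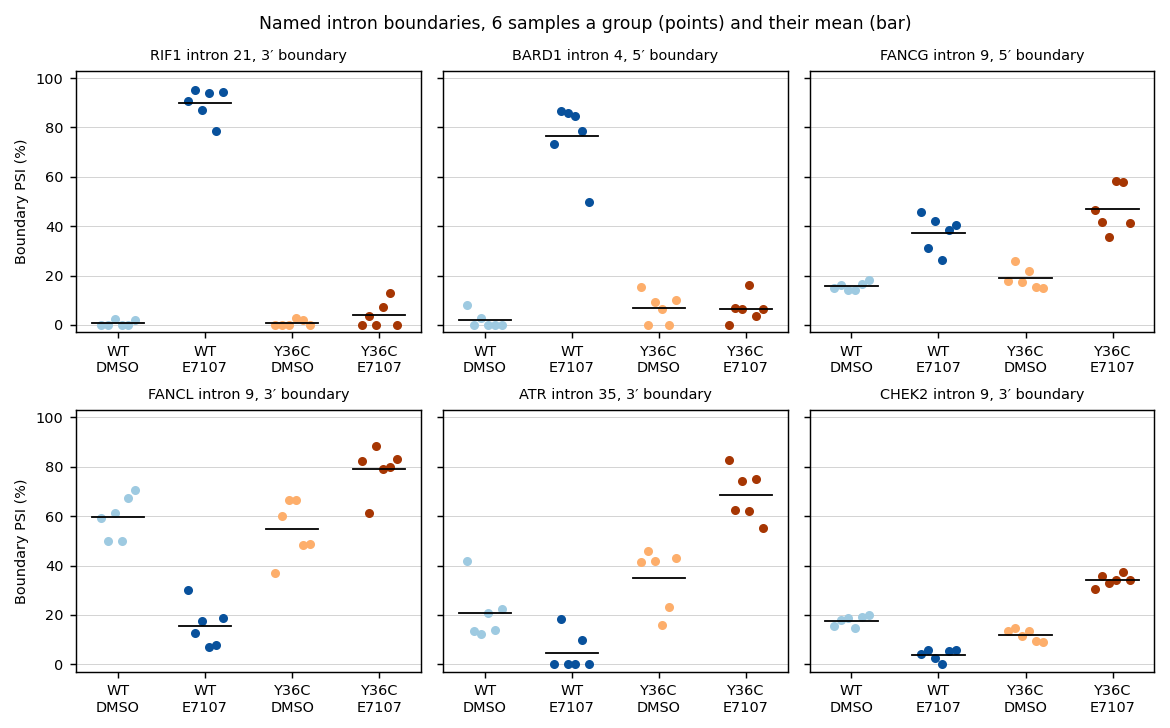
Boundary PSI (%) of 6 named boundaries in every sample of the 4 groups, with a bar for the mean of 6. RIF1 intron 21 and BARD1 intron 4 are high in WT E7107 alone, FANCG intron 9 is high under E7107 in both genotypes, and FANCL intron 9, ATR intron 35 and CHEK2 intron 9 are lowest in WT E7107 and highest in Y36C E7107.

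Of the 568 introns of these genes with both boundaries read in all 24 samples, 214 (37.7%) rose at 1 or both boundaries in WT without passing in Y36C, 41 (7.2%) rose in both, 37 (6.5%) passed in Y36C and not in WT, and 276 (48.6%) rose in neither. Over 85556 introns of all genes the shares were 40.3%, 9.2%, 5.5% and 45%. In both sets a boundary that did not enter the test counts as one that did not rise, so the last class includes untested introns. The difference between the genotypes itself passed, with the signed effect lower in Y36C, in 178 of the 214 introns, and higher in Y36C in 23 of the 37. The 41 introns that rose in both were short and rich in G and C, with medians of 594 bases and 48.6%, and 10 of them belonged to FANCG and 10 to FANCA. The 214 had medians of 1574.5 bases and 39.6%, the 37 of 1341 bases and 42.7%, and the 276 of 1872 bases and 37.9%. Over all genes the medians in the same order were 455, 1354, 660 and 1818 bases, and 53.3%, 42.6%, 53.2% and 42.6%. Pearson's r between the changes of the 568 introns in WT and in Y36C was -0.004.

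**Figure D3:**
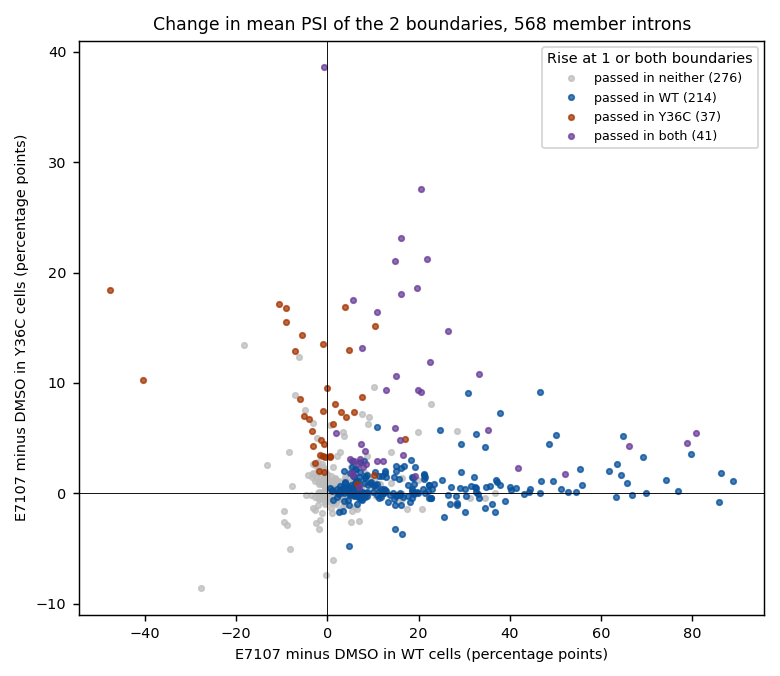
Change in the mean PSI of the boundaries of each of 568 introns under E7107, in percentage points, in WT cells on the horizontal and in Y36C cells on the vertical axis, coloured by where a rise passed the test at 1 or both boundaries. Most of the 214 introns that passed in WT lie along the horizontal axis, and the point at the top is ATR intron 35, which passed in both through its 5′ boundary although its mean fell slightly in WT.

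Within a gene the response could be even or patchy. RIF1 rose along its whole length, whereas in FANCD2 (43 introns, 40 of them read throughout) introns near the middle and the end rose in Y36C and not in WT: intron 38 was at 8.08% and 22.4% in Y36C DMSO and E7107, and intron 39 at 7.70% and 20.6%. FANCD2 intron 15 was instead the highest of the gene in WT E7107, at 20.2%. In ATM 38 of 41 introns had no boundary called as risen in either genotype, in ATR 38 of 41, in BRCA1 16 of 18 and in FANCI 24 of 33. Untested boundaries are included in these counts. In the same order 5, 16, 8 and 62 boundaries were tested in WT and 20, 26, 19 and 64 in Y36C, while 90, 86, 40 and 77 were read in all 24 samples. In FANCG 10 of 12 introns rose in both and the other 2 in WT. CHEK2 had 0 introns that rose in WT, and its introns 9 and 10 rose in Y36C.

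**Figure D4:**
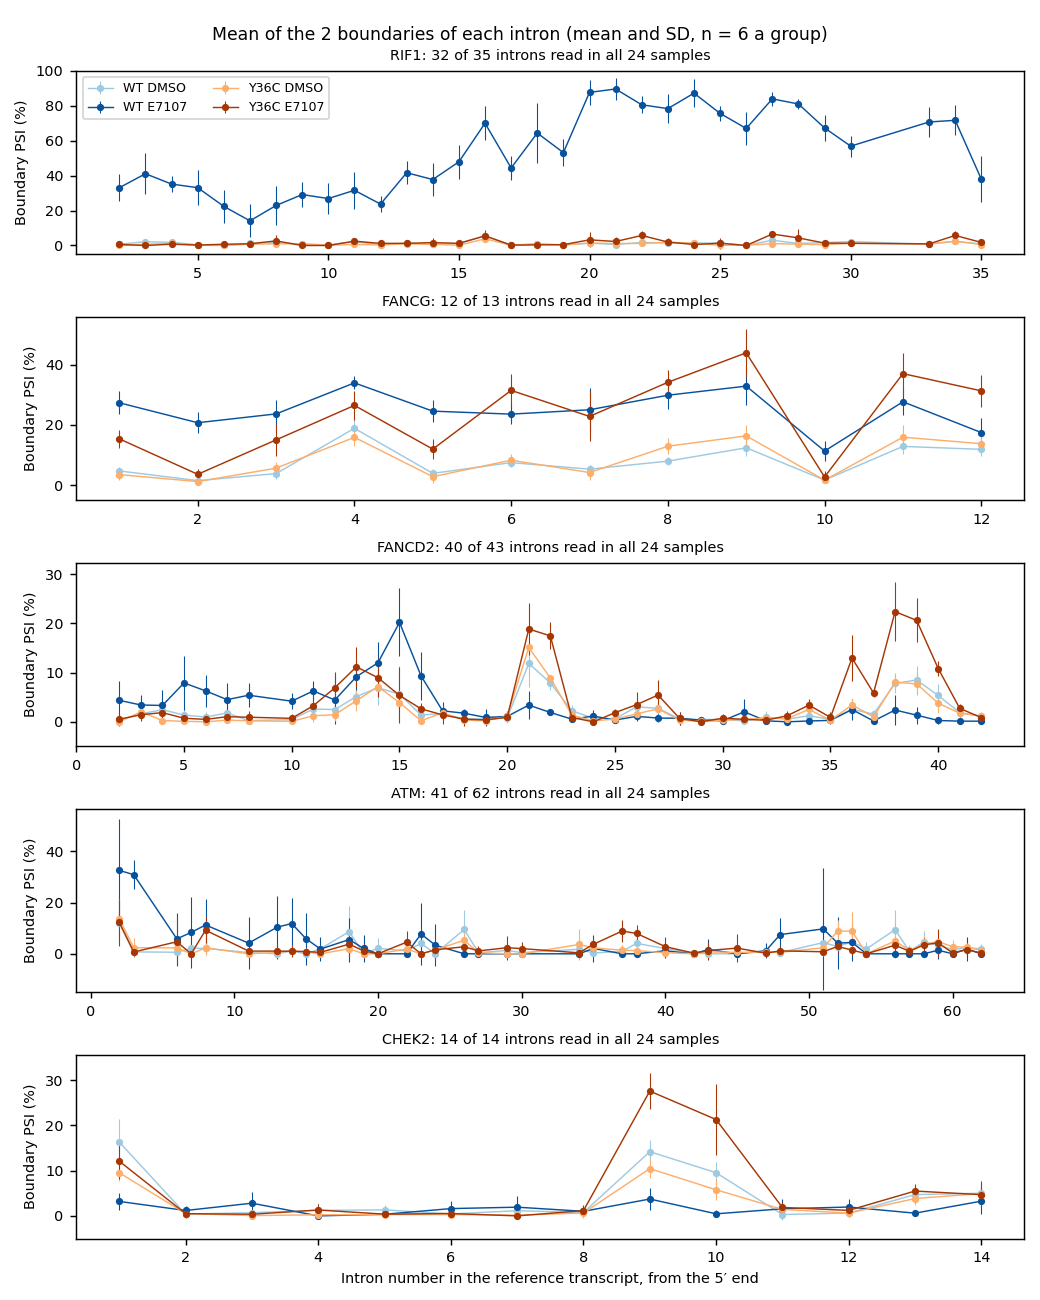
Mean of the boundaries of each intron (PSI, %) along RIF1, FANCG, FANCD2, ATM and CHEK2, with introns numbered from the 5′ end of the reference transcript and bars for the SD of 6 samples. WT E7107 lies far above the other groups along the whole of RIF1, FANCG is raised by E7107 in both genotypes, and FANCD2 and CHEK2 have separate peaks in Y36C E7107.

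Exon skipping was counted on spliced junctions that pass over a whole exon of any protein-coding transcript of the gene. The PSI of such a junction is a share of all reads at its splice site, with those across the boundary included. More retention at a site thus leaves a smaller share for skipping, and retention under E7107 differed between the genotypes. Skipping as a share of spliced reads alone was not computed. Of 2061 such entries, 408 were tested in WT, and 74 rose and 51 fell, against 17.4% and 17.4% over all genes. Of these 408, 2 were at 0 in every WT E7107 sample and so passed the filter through WT DMSO alone. Of the 74, 20 were at 0 in every WT DMSO sample, and these cannot be tested once a WT E7107 sample is left out. The count of rises was then between 49 (without replicate 1) and 53 (without replicate 5), and the rest of the drop was not examined. In Y36C 574 were tested, 152 rose and 17 fell, against 23.5% and 3.94%. Of the 152, 4 were at 0 in every Y36C DMSO sample and so passed the filter through Y36C E7107 alone. The definition of skipping used here also takes in ordinary introns of the reference transcript that span a cassette exon of a minor one. The 5 entries highest in WT DMSO, in CHEK2, RAD50, NBN, MDC1 and FANCC, were all of that kind. Restricted to junctions across an exon of the reference transcript, a choice made after the data were seen, 61 of 269 rose and 21 fell in WT, against 23.6% and 9.79%. In Y36C 150 of 401 rose and 1 fell, against 32.5% and 0.926%. Entries at 0 in every DMSO sample were not counted separately under this restriction. The rises under this restriction were 33 separate junctions in 14 genes in WT, of which 17 skipped 1 exon and 10 left out a multiple of 3 bases, and 81 junctions in 28 genes in Y36C, of which 61 skipped 1 exon and 39 left out a multiple of 3 bases. Shares of these kinds over all genes or over all tested junctions are not given, so no difference between the genotypes is read from them. The 12 junctions that rose in both were 36.4% of those in WT and 14.8% of those in Y36C, against 30.8% and 16.4% over all genes. The difference between genotypes was tested on 538 such entries, with the signed effect higher in Y36C in 132 and lower in 50, against 21.5% and 9.76%. On the wider definition it was higher in 151 and lower in 67 of 692, against 22% and 8.92%. Entries could enter these 2 interaction tests through 1 group alone, and those that did were not counted. Under E7107 alone 163 of 495 entries were higher and 69 lower in Y36C, against 31.9% and 13.4%. Of the 163, 18 were at 0 in every WT E7107 sample, and 10 of the 495 were at 0 in every Y36C E7107 sample, so these were tested through the other group alone.

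The largest rise in Y36C was that of the BRCA1 junction over exons 8 and 9 of the reference transcript (chr17:41246878-41251791, minus strand), which leaves out 123 bases and keeps the frame. In the older numbering of BRCA1, which has no exon 4, these are exons 9 and 10, a pair whose skipping is a common natural isoform. At the 3′ splice site the samples were 9.3%, 18.7% and 28.3% (lowest, median and highest) in WT DMSO and 10%, 17.1% and 33.3% in WT E7107. In Y36C they were 14.3%, 17.6% and 35.6% under DMSO and 51.3%, 62.4% and 69.7% under E7107. The Y36C E7107 samples lay above all others, with a rise of 41.5 points in Y36C (log odds 1.85 ± 0.202 SE, adjusted p = 1.04e-04), 0.99 points in WT (adjusted p = 0.994) and a difference that passed (adjusted p = 4.82e-04). The 5′ end of the junction gave 60.9% ± 10.5 (SD, n = 6) in Y36C E7107 and between 19.6% and 21.0% in the other groups. Of BRCA1's 24 skipping entries tested in Y36C 7 rose, against 23.5% over all genes. Of 13 tested in WT 1 rose and 1 fell, against 17.4% and 17.4%. A junction can give 1 entry at each end, so these are not all separate junctions. The acceptors of the first skipped exon and of the exon that was joined are shown in the same form as above, with those of EXO1 exon 3, RIF1 exon 23 and MRE11 exon 5, which were chosen after their values were seen.
BRCA1 exon 8, skipped, chr17:41249297-41249366, minus strand: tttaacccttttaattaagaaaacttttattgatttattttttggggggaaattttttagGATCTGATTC
BRCA1 exon 10, joined, chr17:41246868-41246937, minus strand: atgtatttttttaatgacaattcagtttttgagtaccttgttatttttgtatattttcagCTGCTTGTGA
EXO1 exon 3, skipped, chr1:242012354-242012423, plus strand: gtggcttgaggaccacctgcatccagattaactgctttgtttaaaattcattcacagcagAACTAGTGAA
RIF1 exon 23, skipped, chr2:152313032-152313101, plus strand: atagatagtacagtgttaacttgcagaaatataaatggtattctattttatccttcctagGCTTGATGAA
MRE11 exon 5, skipped, chr11:94212918-94212987, minus strand: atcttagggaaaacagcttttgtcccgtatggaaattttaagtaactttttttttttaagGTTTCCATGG
MRE11 exon 6, joined, chr11:94212033-94212102, minus strand: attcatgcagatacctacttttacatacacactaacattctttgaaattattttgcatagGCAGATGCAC
In the last 40 intron bases the share of C and T was 55% before BRCA1 exon 8, 67.5% before exon 10, 55% before EXO1 exon 3, 57.5% before RIF1 exon 23 and 60% before MRE11 exon 5. The reference sequence before MRE11 exon 5 holds a run of 11 T, the longest among the acceptors printed. Its length in these cells was not analysed here.

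EXO1 exon 3, of 105 bases, was often skipped without drug. At the 5′ splice site of the junction (chr1:242012330-242013710) the samples were 35.1%, 37.3% and 44.9% in WT DMSO and 33.3%, 40.8% and 47.2% in Y36C DMSO. They were 27.3%, 44.6% and 59.1% in WT E7107, overlapping the untreated samples, and 71.7%, 74.9% and 77.4% in Y36C E7107, above all others. The rise of 33.9 points in Y36C passed (adjusted p = 5.67e-06), the 5.81 points in WT did not (0.408), and the difference did (2.19e-04). At the 3′ end of the same junction the WT mean went from 40.7% to 60.01% and passed (adjusted p = 0.0432), a call lost in 7 of the 12 fits that left out 1 sample. The Y36C mean there went from 44.8% to 72.9% (adjusted p = 7.59e-05), and the difference between the genotypes did not pass at this end (log odds 0.348 ± 0.34 SE, adjusted p = 0.465). Reads across the boundary at this splice site averaged 23.7% in WT E7107 and 0.973% in Y36C E7107. RIF1 exon 23, of 43 bases, was skipped in 1.45%, 2.33% and 3.26% in Y36C DMSO and 20.9%, 37.4% and 43.2% in Y36C E7107 (3′ end, adjusted p = 1.87e-06). In WT the samples were between 2.53% and 3.9% and then between 7.14% and 24.0%, which passed as well (adjusted p = 4.87e-04). The rise in PSI was larger in Y36C (interaction, adjusted p = 2.23e-05). The mean boundary PSI of RIF1 was 54.0% in WT E7107 and 1.86% in Y36C E7107, which limits the share left for skipping in WT.

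ATR exon 30, of 92 bases, was skipped at the 5′ end of its junction (chr3:142218561-142223980) in samples between 0% and 10.7% in Y36C DMSO and between 16.7% and 59.1% in Y36C E7107 (adjusted p = 0.0032), while the WT groups lay between 0% and 6.67% and between 0% and 10% and did not differ past the test (adjusted p = 0.591). FANCM exon 8, of 87 bases (chr14:45624026-45628298), was skipped in 0% of reads in all 6 Y36C DMSO samples and in 22.2%, 33.3% and 63.6% in Y36C E7107. This entry was therefore tested in Y36C cells through Y36C E7107 alone. In WT its samples reached 16.7% under DMSO and 50% under E7107, each with a lowest sample of 0%.

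The largest rises of skipping entries in WT were those of RIF1 exon 8, BARD1 exons 2 and 3 and FANCE exons 8 and 9, beside EXO1 exon 3 and an MRE11 junction. The MRE11 junction removes intron 7 of the reference transcript and skips none of its exons. RIF1 exon 8, of 93 bases and in frame (chr2:152276894-152285297), was skipped at the 5′ end of the junction in 0%, 0.676% and 6.94% in WT DMSO and 40%, 62.5% and 66.7% in WT E7107, and in Y36C the median went from 3.25% to 22.8%. Both rises passed (adjusted p = 2.85e-06 and 0.00222), and it was the larger in WT (interaction, adjusted p = 0.0123), a call lost with an offset of 0.1 percentage point (0.0682). The junction over BARD1 exons 2 and 3, of 206 bases (chr2:215646234-215674135), rose from a median of 3.08% to 37.9% in WT and from 0% to 13.4% in Y36C, and the difference did not pass on the log odds (adjusted p = 0.178). FANCE exons 8 and 9, of 193 bases, were skipped in 4.35%, 6.19% and 11.4% in WT DMSO and 11.1%, 33.0% and 60% in WT E7107, the groups overlapping slightly, while the Y36C medians were 2.41% and 2.99%. The interaction (adjusted p = 0.0396) was lost in 13 of the 24 fits that left out 1 sample and with an offset of 0.1 (0.377).

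**Figure D5:**
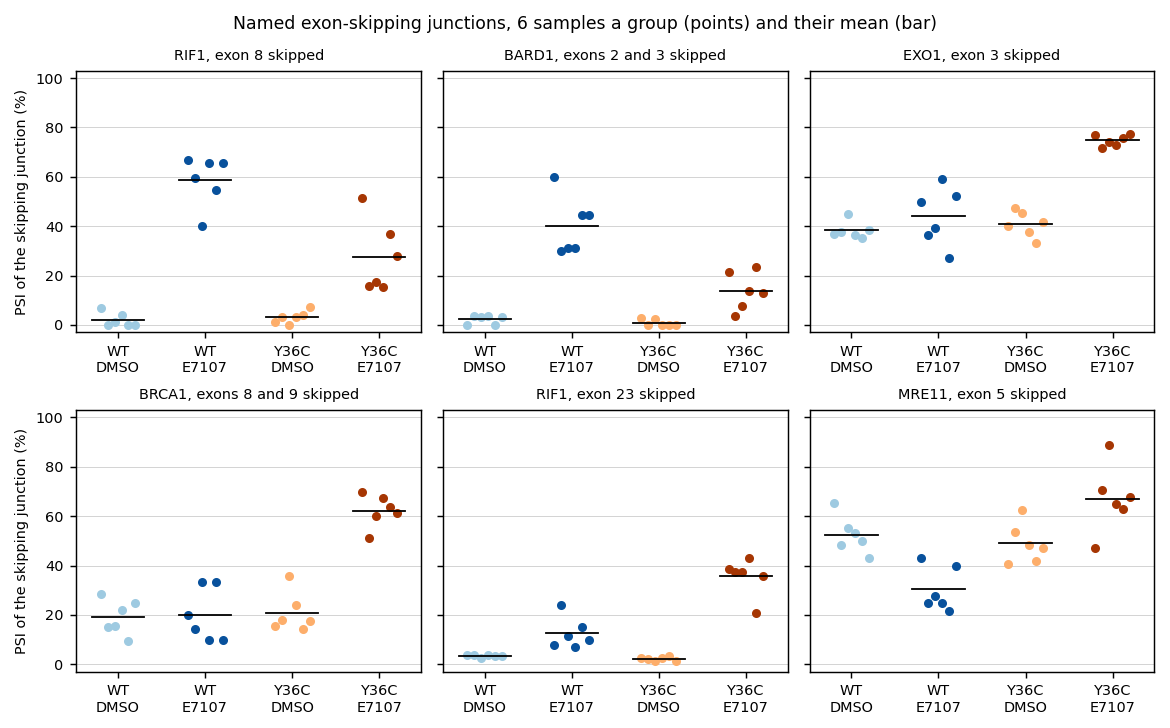
PSI (%) of 6 exon-skipping junctions at the splice site named in the text, in every sample of the 4 groups, with a bar for the mean of 6. The PSI of skipping is highest in WT E7107 for RIF1 exon 8 and BARD1 exons 2 and 3. It is highest in Y36C E7107 for BRCA1 exons 8 and 9, EXO1 exon 3 and RIF1 exon 23, and lowest in WT E7107 for MRE11 exon 5. Reads across the boundary of the site count in the same total.

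MRE11 had a mixed pattern. Exon 5, of 88 bases and so out of frame, was skipped in about as many reads as it was included without drug: at the 5′ end of the junction (chr11:94212043-94219089, minus strand) the samples were 42.9%, 51.6% and 65.4% in WT DMSO and 40.7%, 47.5% and 62.5% in Y36C DMSO. They fell to 21.7%, 26.4% and 42.9% in WT E7107 (adjusted p = 0.00208), and were 46.9%, 66.3% and 88.9% in Y36C E7107, which did not pass (0.0953). The effects differed (interaction, adjusted p = 5.4e-04), and at the 3′ end too (1.94e-04), where the rise in Y36C passed (0.0436) but was lost in 9 of the 12 fits that left out 1 sample. In intron 7 of the same gene (chr11:94204926-94209454) retention at the 3′ boundary fell in WT from 36.8%, 52.1% and 65.8% to 0%, 9.44% and 20.0% (adjusted p = 0.00197), and in Y36C from a mean of 49.8% to 36.95% (adjusted p = 0.032, lost in 9 of 12 such fits). The junction that removes this intron, which belongs to the reference transcript, rose accordingly at its 3′ end in WT from a mean of 45.5% to 83.4% (adjusted p = 0.00796). Skipping of exon 7 rose in Y36C from a mean of 1.31% to 6.19% at the 5′ end (adjusted p = 0.0472, lost in 8 of the 12 fits that left out 1 sample) and from 0.997% to 5.92% at the 3′ end (0.0187). The means for exon 16 lay between 4.16% and 7.95% at both ends in all groups, and no comparison of E7107 and DMSO passed. In WT the exon 16 comparison passed at both ends without WT E7107 replicate 3 (0.00233 and 0.00394), and at the 5′ end with an offset of 0.1 (0.0445).

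Between the genotypes without drug, 0 of 673 boundary entries were higher in Y36C and 2 were lower, against 0.0737% and 0.0673% over all genes, with 65 at an unadjusted p under 0.05. Of 499 skipping entries 0 were higher and 0 lower in limma, against 0.16% and 0.0723%, with 42 at an unadjusted p under 0.05. The pair of boundaries was EXO1 intron 9 at its 5′ end (chr1:242024007-242024707), with samples between 1.49% and 5.26% in WT DMSO and between 0% and 1.22% in Y36C DMSO (adjusted p = 0.0238), and TOPBP1 intron 22 at its 3′ end (chr3:133335770-133336003), between 0.752% and 1.91% and between 0% and 0.68% (adjusted p = 0.0438). The calls were lost in 9 and 10 of the 12 fits that left out 1 sample.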

How the data were processed

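RNA-seq (polyA RNA, Illumina) was made from 24 samples of HCT116 cells, 6 in each group by genotype and treatment as the sample titles give them. According to the methods and the labels, the authors aligned reads to hg19 with STAR (version not given in the sources used here), took junction counts and deposited, per sample, how many percent of the reads at a splice site use each junction (percent spliced in). Percentages at a site added up to 100 or 0, and 0 was taken as no reads. Entries without a strand or on the mitochondrial chromosome, 1854 in number, were left out. No pair of samples had identical values.

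Genes, exons and introns came from GENCODE lifted to GRCh37, with the Ensembl canonical transcript as reference, and 98.2% of 3571 junctions of the 37 genes had GT and AG at the intron ends. In limma 3.58.1 (R 4.3.3), the natural logarithm of the odds of PSI was fitted, after adding 1 percentage point to PSI and to its complement, to the samples compared (interaction: all 24) with no covariate. An entry was tested where its site had reads in all samples compared and its PSI was above 0 in at least 6 of them. Adjustment ran over all entries of all genes, with a threshold of 0.05. Gene levels, over at least 3 boundaries, were fitted alike without the filter on values. Other tools were Python 3.11.15, pandas 2.3.3, numpy 2.4.6 and pysam 0.24.0. The fit was tested on simulated data.

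The 37 genes, the role groups, the list of other pathway genes and the rule for named entries were chosen with earlier results of these data known. The rule took every gene by its level and, with 1 entry per gene and reads in all 24 samples, the 5 boundaries that rose most in WT, in Y36C and in either direction of the interaction, the 5 lowest introns in WT E7107, the 5 skipping entries that rose most in each genotype and the 5 highest in WT DMSO, the entries called between the DMSO groups, and the MRE11 and BRCA1 skipping entries reaching a mean of 5%. Alternatives were a change of at least 10 points, an offset of 0.1, PSI in percent, other filters, empirical Bayes with trend and robust estimation, the replicate number as a block, each sample left out, and 2 definitions added after the data were seen (all boundaries in the gene spans, and reference exons for skipping).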

Additional observations from a re-analysis of the deposited data

Results flagged for a closer look

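In 144 groups of 6 samples, 1 for each of 36 genes and 4 groups, 7 had a highest or lowest sample far from the others by Dixon's test, where chance flags about 1 group in 20. RAD52 stood at 44.4% in WT E7107 replicate 2, with the nearest sample at 34.8%, and RBBP8 at 5.53% in the same sample, with the nearest at 4.07%. FANCA and FANCI stood at 7.83% and 4.51% in WT DMSO replicate 1, with the nearest at 6.8% and 3.36%. FANCI was at 3.25% in WT E7107 replicate 3, NBN at 1.88% in Y36C E7107 replicate 6 and FANCD2 at 4.08% in Y36C E7107 replicate 4. Among the calls on these genes in WT, Y36C and the interaction, those of FANCI in WT alone changed without such a sample.

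Several effects of E7107 had opposite directions in the genotypes, by a test of the difference itself (limma interaction). The mean boundary PSI of FANCL and of CHEK2 fell in WT and rose in Y36C, with differences of 14.4 and 5.19 percentage points. So did the 3′ boundaries of FANCL intron 9, ATR intron 35 and CHEK2 intron 9 and the 5′ boundary of FANCC intron 12, with differences of 68.5, 49.4, 36.1 and 32.0 points. At the 3′ boundary of MRE11 intron 7 both genotypes fell, and the fall in Y36C was smaller by 29.4 points. At the other ends of MRE11 intron 7, FANCC intron 12 and ATR intron 35 the interaction did not pass (adjusted p = 0.0665, 0.0923 and 0.0867). It passed at the other ends of FANCL intron 9 and CHEK2 intron 9 (0.0187 and 3.11e-04).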

How the results depend on the processing

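The replicate numbers of the labels did not pair the samples: same-numbered samples had deviations correlated between -0.00635 and 0.00701, and at most 2 of 6 correlated best with their own number. With the number as a block, boundaries called in Y36C went from 131 to 87, and those between the DMSO groups from 2 to 0. When a minimum change of 10 points was asked for, there remained, in WT, 318 boundaries, 68 skipping entries and 17 genes, in Y36C 69, 84 and 1, under E7107 300, 124 and 15, in the interaction 114 skipping entries and 16 genes, and between the DMSO groups 0 boundaries. These counts cover the listed genes alone, without the shares over all genes. Reference exons alone left 82 of 125 skipping calls in WT. The calls between the DMSO groups went from 2 to 1 with an offset of 0.1, no filter on values or trend and robust estimation, to 0 with PSI in percent, and to between 0 and 2 with 1 sample left out. The other counts stayed within 1.5 times the main count in every alternative run, and with 1 sample left out the boundaries called in WT lay between 415 and 453 and in Y36C between 104 and 117. No named gene or entry that passed the test changed sign in an alternative, whereas several changes that did not pass, such as those of BARD1 and PALB2 in Y36C, did. Causes were not tested. Depth is not known: a PSI of 0 or 100 at a site may rest on a few reads, and sites without reads in any 1 of the samples compared were left out, most of them in WT E7107.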
